A study of Homo sapiens with 4 samples.

Results

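HULC, UCA1 and LINC00176, the last now annotated as C20orf204, are long non-coding RNA (lncRNA) genes studied in hepatocellular carcinoma. Their levels were taken from a table of non-coding transcripts in the HUH7 line, established from a human liver carcinoma. A row of the table was taken as a member if its transcript identifier, with the version removed, belonged to one of these 3 genes in the GENCODE annotation, release 44, mapped to the human build GRCh37 (hg19). This gave 7 of the 19835 transcript rows, 2 of HULC, 1 of UCA1 and 4 of C20orf204, and 3 of the 11465 matched genes. The 4 libraries were of HUH7 cells grown in medium with serum, with no treatment named, and formed 1 group, replicates 1 to 4, so that no treated or control arm existed. Values were FPKM, which correct the fragments of a transcript for its length and for the depth of the library, and errors are SD over n = 4 libraries throughout. Since no label names separate cultures, each p-value reflects only how these libraries scattered, possibly for technical reasons.

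An lncRNA is transcribed and spliced much as a messenger RNA is, but acts as RNA. Some lncRNAs bind proteins or chromatin, and others carry sites that pair with the seed of a microRNA and have been described as sponges for it. HULC (highly up-regulated in liver cancer) was named for its high level in hepatocellular carcinoma and is described mainly as a cytoplasmic RNA. UCA1 (urothelial carcinoma associated) was first found in bladder cancer and has since been described in liver cancer. LINC00176 was described as an lncRNA under the control of the transcription factor MYC in liver cancer cells, and its locus was later annotated as the coding gene C20orf204.

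HULC was by far the most abundant of the 3 genes, and UCA1 and C20orf204 lay close to 5 FPKM. The study set this level as the minimum for single transcripts of its knockdown library. The summed HULC rows had 734, 716, 597 and 726 FPKM in replicates 1 to 4, a mean of 693 ± 64.8 FPKM. UCA1 had 10.9, 5.02, 8.57 and 5.73 FPKM, a mean of 7.56 ± 2.71 FPKM. C20orf204 had 5.08, 8.66, 4.36 and 9.61 FPKM when its 4 rows were summed, a mean of 6.93 ± 2.595 FPKM. HULC lay above both other genes in every library, whereas the ranges of UCA1 and C20orf204 overlapped almost completely. In bulk RNA, a level does not tell apart how many cells held a transcript and how much each of them held.

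**Figure D1:**
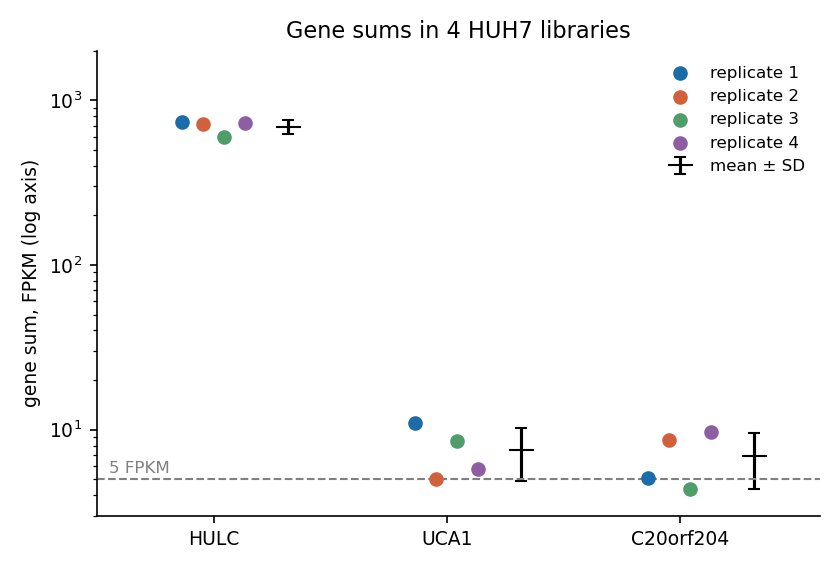
Gene sums in FPKM (log axis) of HULC, UCA1 and C20orf204 in the 4 HUH7 libraries (coloured points), with mean ± SD (black) and the level of 5 FPKM (dashed). HULC lay between 597 and 734 FPKM; UCA1 was highest in replicates 1 and 3, C20orf204 in replicates 2 and 4.

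Whether each gene sum passed 5 FPKM was put to the one-sample moderated test of limma on log2(FPKM + 1). Benjamini-Hochberg adjustment was over 7124 genes with a mean of at least 0.1 FPKM. The study set 5 FPKM on single transcripts, not on sums. By row, UCA1 was not placed (adjusted p = 0.0753 by limma over transcripts), and no C20orf204 row reached 5 FPKM in any library. HULC was above 5 FPKM by 6.85 ± 0.084 (SE) on the log2 scale, with an adjusted p = 1.91e-17 by limma. UCA1 was above it by 0.46 ± 0.21 (SE), with an adjusted p = 0.0493 by limma, and 4 of 4 libraries were above 5 FPKM, replicate 2 only just. C20orf204 was not placed on either side, at 0.34 ± 0.21 (SE) with an adjusted p = 0.145 by limma, and 3 of its 4 libraries were above 5 FPKM. Hence 2 of the 3 genes were called above, where 50.3% of all genes tested were, 38.5% were called below and 11.2% were not placed. The call of UCA1 did not hold without replicate 1 (adjusted p = 0.273) or without replicate 3 (adjusted p = 0.156), nor with another scaling of the libraries (adjusted p = 0.0660). With every library divided to the same sum, UCA1 and C20orf204 lay under 5 FPKM, at -0.31 and -0.41 on the log2 scale. That step divided the libraries by 1.76 to 1.97 and kept the threshold at 5 FPKM, so it lowered every gene against it.

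Among the 11465 genes, HULC ranked 108 by its mean, in the 99.1 percentile, and between 93 and 124 in the single libraries. UCA1 ranked 3568 by its mean, between 3147 and 4062 in the libraries, and C20orf204 ranked 3673, between 3222 and 4128. The rank ranges of UCA1 and C20orf204 overlapped, and both means were under 7.61 FPKM, the median of the 7124 genes tested.

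**Figure D2:**
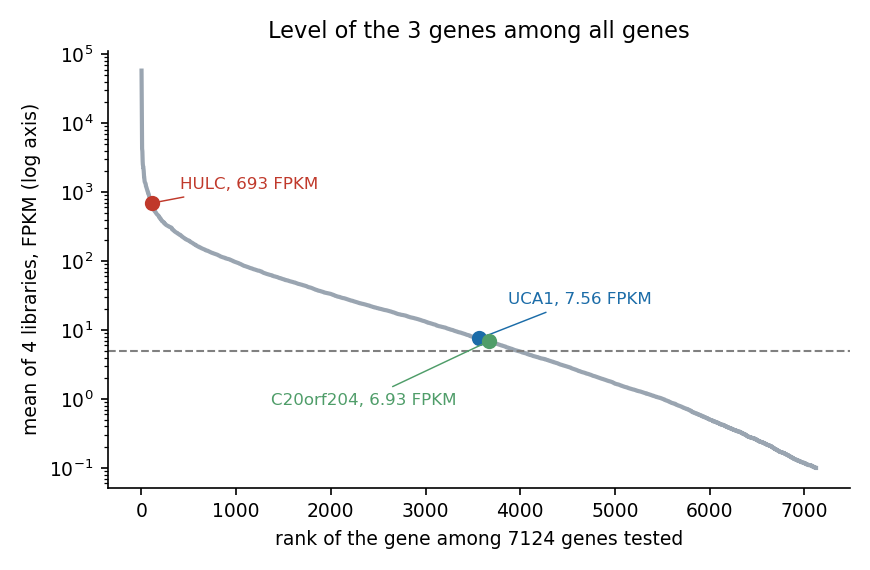
Mean FPKM of the 7124 genes tested (log axis) in order of level (grey line), with HULC, UCA1 and C20orf204 as points and 5 FPKM dashed. HULC stood in the steep upper end, whereas UCA1 and C20orf204 were neighbours near the middle, just above the dashed line.

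Levels were next set side by side within each library, which FPKM allow since they are per length. HULC exceeded UCA1 by 67.3 to 143 times (log2 ratio 6.39 ± 0.51) and C20orf204 by 75.5 to 145 times (log2 ratio 6.51 ± 0.41), in 4 of 4 libraries each. The exact two-sided sign-flip permutation test gave p = 0.125 for both, the smallest that 4 libraries allow, and 0.188 after adjustment over 3 pairs, so that no pair could pass 0.05. UCA1 and C20orf204 could not be ordered by their sums. Their log2 ratio averaged 0.12 ± 0.91, with 0.97, -0.68, 0.84 and -0.66 in replicates 1 to 4 (exact p = 0.75). UCA1 was thus the higher in replicates 1 and 3, and C20orf204 in replicates 2 and 4. By the highest transcript of each gene instead, UCA1 was higher in 4 of 4 libraries (log2 ratio 0.91 ± 0.67, exact p = 0.125). Over all genes tested, 15.2% had both replicates 2 and 4 above replicates 1 and 3, as C20orf204 did, and 12.6% had both below them, as UCA1 did. Replicates 1 and 3 have titles with another letter than replicates 2 and 4, but the submitters state that these letters are internal names and no variables, and they entered no comparison.

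HULC lies on the plus strand of chromosome 6, and the annotation gives it 127 transcripts at 8435801 to 9294366, of which 2 were in the table. Almost all of its signal was in ENST00000503668, an lncRNA of 2 exons and 947 nt at chr6:8652370-8654470 in the present model. This row had 732, 711, 593 and 719 FPKM in replicates 1 to 4. The 4 values stayed within a coefficient of variation of 9.38%, with replicate 3 the lowest. By limma over 11435 transcripts the row was above 5 FPKM by 6.84 on the log2 scale (adjusted p = 4.88e-12). The study's listing for its knockdown library gives a stretch of 311 nt of this RNA, bases 213 to 523 of the present model. Its first 300 bases (chr6:8652582-8654035, without the intron) are printed because this RNA carried nearly all HULC signal, with 10 bases on each side of the exon junction in capitals.
HULC ENST00000503668: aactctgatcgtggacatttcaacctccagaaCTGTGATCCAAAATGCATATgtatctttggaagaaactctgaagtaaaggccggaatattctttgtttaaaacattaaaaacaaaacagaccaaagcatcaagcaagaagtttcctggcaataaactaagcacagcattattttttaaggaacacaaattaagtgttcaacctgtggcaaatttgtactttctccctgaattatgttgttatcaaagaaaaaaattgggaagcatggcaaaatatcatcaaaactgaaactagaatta

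The other HULC row, ENST00000429060, starts 122 kb downstream of the first, at chr6:8776269-8785676, and has 3 exons and 612 nt. It had 2.70, 5.03, 4.12 and 6.79 FPKM, a mean of 4.66 ± 1.71 FPKM, with replicates 2 and 4 above replicates 1 and 3. It was not placed against 5 FPKM (log2 difference -0.14, adjusted p = 0.609 by limma). It made up 0.67 ± 0.23% of the HULC sum, and ENST00000503668 the other 99.3 ± 0.23%. The ratio of the main to the minor row was between 106 and 271 (log2 ratio 6.98 ± 0.46, exact p = 0.125). The rows shared 0 sequences of 24 nt, so reads of one could not be taken for the other over such a length.

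Part of the minor row is repeated sequence. Of its 24-nt windows, 18.0% occurred at least 10 times in the genome, against 3.25% of those of ENST00000503668. It also shared such windows in sense with 97 other genes of the annotation, up to 13.8% of them with 1 gene. The main row shared windows with more genes, 779, but at most 0.869% of them with any 1 gene. How far reads of other RNAs entered the 4.66 FPKM of the minor row, or the level of the main row, was not tested.

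UCA1 was represented by a single row, ENST00000397381, of 45 transcripts that the annotation now gives to the gene. This lncRNA of 3 exons and 2057 nt lies on the plus strand at chr19:15939873-15947124. Its values are those of the gene, and in the test over transcripts it was not placed against 5 FPKM (log2 difference 0.46 ± 0.22 SE, adjusted p = 0.0753 by limma), although the gene was called above in the test over genes. Without replicate 2 the row was called above (adjusted p = 0.0375). Its spread was wide, with a coefficient of variation of 35.9%; replicate 1 was the highest and replicate 2 the lowest.

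On the opposite strand, 503 bases of the UCA1 row (24.5%) are overlapped by exons of LINC01764 and 219 bases (10.6%) by exons of ENSG00000288618. The libraries were strand-specific, but the strand setting of the alignment is not given in the sources used here. Reads of these antisense genes therefore cannot be told apart from UCA1 reads at those bases. Repeated sequence was also present, with 11.1% of the 24-nt windows of UCA1 found at least 10 times in the genome and 38.3% at least 2 times. Against single other genes of the annotation the part shared in sense was small, at most 1.86% of windows.

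MicroRNAs that have been described as bound by the 3 lncRNAs were looked for by the 7-base complement of the seed (bases 2 to 8). Of 10 listed pairs, 2 had a match, both in UCA1, out of 5 listed for it. Among transcripts of like length, 13.2 to 21.6% held the 7 bases looked for in UCA1, depending on the microRNA. For the HULC rows these shares were 5.49 to 11.6%, and for the C20orf204 rows 11.5 to 43.0%. None of the 3 listed for HULC (miR-372-3p, miR-107 and miR-200a-3p) or the 2 listed for C20orf204 (miR-9-5p and miR-185-5p) matched, which says only that those letters are not in the present models. The match for miR-1-3p was ACATTCC, at bases 1591 to 1597 of UCA1 (chr19:15946658-15946664), searched on the transcript strand. Of 1942 transcripts of like length, 13.2% held it, and a match is a description of the sequence, not a site. The microRNA (RefSeq, build GRCh38) is shown with the seed in capitals and the UCA1 stretch with the matching bases in capitals.
hsa-miR-1-3p: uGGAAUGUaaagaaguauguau
UCA1 at the miR-1-3p match: cccaccttacgACATTCCaccattatgact

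The signal of C20orf204 (LINC00176) was divided over several rows of the table. With only 1 of 45 annotated transcripts present for UCA1 and 2 of 127 for HULC, a like division there could have been missed. C20orf204 lies on the plus strand at chr20:62665697-62671315, and 4 of its 5 annotated transcripts were in the table. No row had a mean above 5 FPKM, and no row reached 5 FPKM in any library; only their sum did, in 3 libraries. The longest row, ENST00000444463 (4 exons, 4303 nt, chr20:62665697-62670354), had 2.77, 4.29, 3.01 and 3.21 FPKM, a mean of 3.32 ± 0.67 FPKM. It was the steadiest of the 4 rows. ENST00000358393 (1466 nt, chr20:62669493-62671131) had 2.06, 3.56, 0.81 and 3.64 FPKM, a mean of 2.52 ± 1.35 FPKM. Here replicate 3 was far under the others. ENST00000463337 (1412 nt), the only row with an annotated coding sequence of its own, had 0, 0.55, 0.54 and 1.62 FPKM, and ENST00000431158 (2954 nt) had 0.25, 0.26, 0 and 1.14 FPKM. Both had at most 0.55 FPKM in the other libraries and were highest in replicate 4.

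Against 5 FPKM, 3 of the 4 rows were called below by limma over all transcripts, where 43.3% were below, 41.9% above and 14.8% not placed. The log2 differences of those rows were -0.87 for ENST00000358393 (adjusted p = 0.0197), -1.92 for ENST00000463337 (adjusted p = 7.23e-05) and -2.15 for ENST00000431158 (adjusted p = 1.38e-05). ENST00000444463 was not placed (-0.49, adjusted p = 0.0692). Without replicate 1 or replicate 3, ENST00000358393 was no longer called (adjusted p = 0.0541 and 0.0950).

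**Figure D3:**
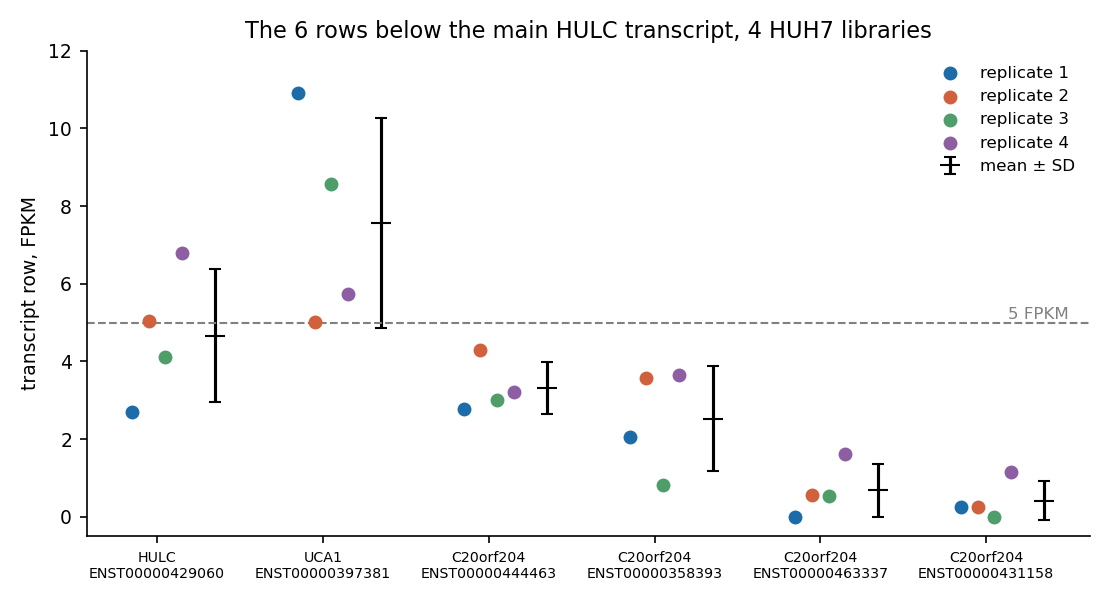
FPKM of the minor HULC row, the UCA1 row and the 4 C20orf204 rows in the 4 libraries (coloured points), with mean ± SD (black) and 5 FPKM (dashed). Each C20orf204 row stayed under the dashed line in every library, with 4.29 FPKM the highest value, whereas every UCA1 value was above it.

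By share, ENST00000444463 made up 51.6 ± 14.7% of the C20orf204 sum and ENST00000358393 made up 34.5 ± 10.7%. ENST00000463337 made up 8.90 ± 7.33% and ENST00000431158 made up 4.95 ± 5.04%. The share of ENST00000444463 was 54.5, 49.5, 69.04 and 33.4% in replicates 1 to 4, and it was the highest row in 3 of the 4. Its log2 ratio to ENST00000358393 averaged 0.38 ± 0.55 (exact p = 0.25), within the spread of the libraries.

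Each row shares most of its bases with another of the 4 rows, but not all rows share the same bases. ENST00000358393 and ENST00000463337 run on to chr20:62671131 and chr20:62671315, past chr20:62670354, where ENST00000444463 and ENST00000431158 end. Bases shared by only some of the rows can thus bear on the division of reads, as can bases in no other row. ENST00000444463 alone holds 1319 of its bases (30.7%), all of them at its 5′ end. ENST00000463337 alone holds 184 (13.0%), ENST00000431158 alone holds 123 (4.16%) and ENST00000358393 alone holds 93 (6.34%). RSEM, the program the authors used, divides reads that match several rows by estimation, and the values of the 4 rows therefore depend on each other. The sum adds values that were scaled by different lengths.

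**Figure D4:**
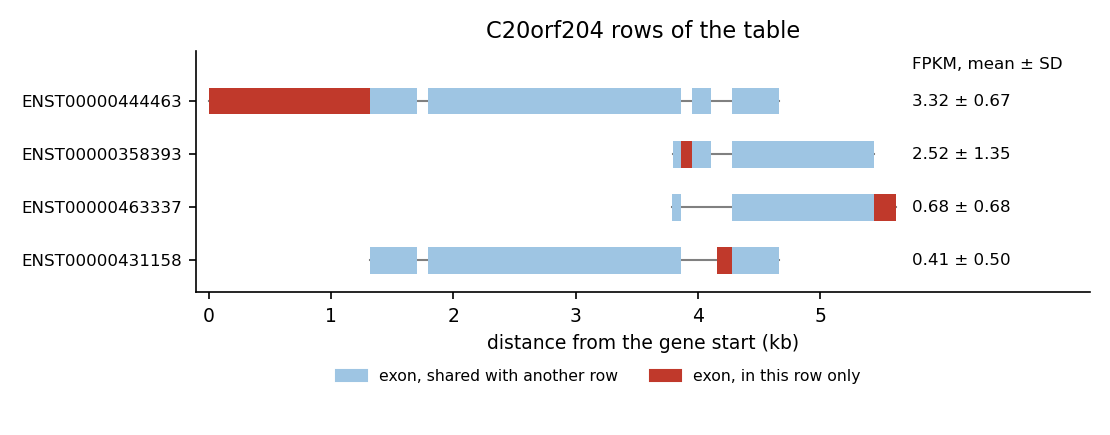
Exons of the 4 C20orf204 rows by distance from the gene start in kb, with bases shared with another of the rows in blue and bases held by 1 row in red; mean ± SD in FPKM stands at the right. The red part was long only in ENST00000444463, the row with the highest mean (3.32 FPKM).

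Of these rows, 3 are annotated as retaining an intron. ENST00000358393 keeps an intron of 93 nt, the only bases it shares with none of the other 3 rows, and the intron is printed with 10 exonic bases on each side (chr20:62669546-62669658), the bases of this row alone in capitals.
C20orf204 ENST00000358393: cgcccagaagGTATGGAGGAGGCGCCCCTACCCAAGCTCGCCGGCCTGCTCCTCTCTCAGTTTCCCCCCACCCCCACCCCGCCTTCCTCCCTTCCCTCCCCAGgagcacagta
ENST00000431158 holds the last 123 bases of the next intron of 173 nt. Exon junctions apart, no other bases belong to that row alone. The intron is printed with the 10 bases on each side (chr20:62669792-62669984), the 123 bases in capitals; the lower-case bases before them are not in this row.
C20orf204 ENST00000431158: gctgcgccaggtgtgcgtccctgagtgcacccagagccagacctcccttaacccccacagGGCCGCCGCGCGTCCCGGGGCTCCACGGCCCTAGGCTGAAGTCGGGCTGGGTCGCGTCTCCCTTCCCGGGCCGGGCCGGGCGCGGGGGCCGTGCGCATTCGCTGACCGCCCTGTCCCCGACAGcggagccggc

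The annotated coding sequence of C20orf204, in the transcript not in the table (ENST00000636176), has 567 bases. ENST00000444463 contains all 567 of them, ENST00000431158 contains 414, ENST00000358393 contains 351 and ENST00000463337 contains 206. The locus begins 1243 bases after the end of PRPF6, a splicing factor gene on the same strand. Coding transcripts were left out of the alignment reference, so the level of PRPF6 and whether its reads continue into C20orf204 was not analysed here. C20orf204 differed in base composition from the other members, with 62.3 to 69.9% G and C in its rows, against 36.2 and 46.1% in those of HULC and 47.0% in UCA1. Little of it was repeated. Of its 24-nt windows, 0% were found at least 10 times in the genome and at most 2.62% (in ENST00000444463) at least 2 times. Such windows were shared in sense with 0 other genes of the annotation.

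Depth was estimated from the steps of the low FPKM values, which gave 4490000 to 5060000 fragments on non-coding transcripts per library. The depth and a length offset of 80 nt were chosen to put the most low values within 0.05 of a whole fragment. The share reached, 72.0 to 72.5%, is therefore no separate check of the depth. Summed FPKM were 1755972 to 1965229 per library. On this scale UCA1 rested on about 70.7 fragments per library, and counting alone would give it a coefficient of variation of 11.9%, against 35.9% observed. For the C20orf204 rows with the same version as in the present annotation, about 16.9 fragments stood behind ENST00000358393, 5.86 behind ENST00000431158 and 4.47 behind ENST00000463337. Counting alone would give these a coefficient of variation of 24.3, 41.3 and 47.3%, against 53.6, 121 and 100% observed. HULC ENST00000503668 rested on about 762 fragments if its length was that of the listed stretch and on 2860 if it was that of the present model, with counting errors of 3.62 and 1.87%. These estimates use the lengths of the present models, and the versions of both HULC rows, of UCA1 and of ENST00000444463 have changed since the files were made. They cover counting error only.

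The genes with the most similar levels were found by the distance of log2(FPKM + 1) over the 4 libraries among 5066 genes with a symbol. For HULC they were non-coding transcripts of TMEM258 (757 ± 58.8 FPKM, distance 0.30), FMR1-IT1 (695 ± 47.9 FPKM, 0.33) and of POFUT1 (664 ± 58.9 FPKM, 0.33). For UCA1 they were LINC01393 (7.56 ± 3.38 FPKM, 0.31), LINC02421 (6.73 ± 1.84 FPKM, 0.34) and LSAMP-AS1 (8.49 ± 3.36 FPKM, 0.34). C20orf204 had H19 as its nearest, at a distance of 0.43. H19, an imprinted lncRNA that is abundant in fetal liver, had 3.87, 7.52, 3.91 and 8.40 FPKM in replicates 1 to 4. Replicates 2 and 4 were above 1 and 3 as in C20orf204, an order that 15.2% of all genes tested had. Because H19 was picked by its closeness over these same values, the shared order is no separate result. KCNIP1-OT1 (6.17 ± 1.16 FPKM, 0.52) and JRK (6.95 ± 1.69 FPKM, 0.54) came next. With 4 libraries of 1 group, likeness here means mainly a similar level.

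Few other non-coding transcripts were measured around HULC and UCA1, with distances taken from the annotated span of each gene. Within 1 Mb of HULC the table had 4 rows of other genes, of which 2 were at 0 in all libraries. ENST00000431369, antisense within the HULC span, and ENST00000415575, 92.5 kb from it, were those listed at 0, and ENST00000439891, 93.1 kb away, had 1.88 ± 1.36 FPKM. From the nearest HULC row of the table, however, they lay 339, 309 and 310 kb away, in that order. The highest was DSP-AS1 with 17.7 ± 2.52 FPKM at 894 kb from the span (1111 kb from the nearest HULC row), far under HULC itself. Within 1 Mb of UCA1 the table had 7 rows, all of LINC00661, 6 of them at 0 and the highest at 0.078 ± 0.155 FPKM. Around C20orf204, near the end of chromosome 20, 22 rows were found, of which 11 were at 0 and 8 had a mean above 5 FPKM. The highest was ZBTB46-AS1 (146 ± 8.31 FPKM, 218 kb away), well above C20orf204 itself. The row nearest to C20orf204, ENST00000455524 at 16.8 kb, was listed at 0.

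HULC, UCA1 and C20orf204 were finally placed among 48 lncRNAs that have been described as raised in liver cancer, a list written with earlier results of these data known. Of these, 37 were in the table, and 31 were above 5 FPKM by limma, 1 (HOTTIP, 2.27 ± 0.92 FPKM) was below, 2 were not placed and 3 had means under 0.1 FPKM. Over the 34 tested, the share above was 91.2% and the median was 133 FPKM, against 50.3% and 7.61 FPKM over all genes tested. The highest were DANCR (3882 ± 322 FPKM), ZFAS1 (2491 ± 199 FPKM), SNHG1 (2375 ± 175 FPKM), SNHG6 (1656 ± 334 FPKM) and MALAT1 (1098 ± 298 FPKM). DANCR, ZFAS1, SNHG1 and SNHG6 are hosts of small nucleolar RNAs, and MALAT1 is a nuclear lncRNA of many cell types. HULC stood among the upper genes of this list, whereas UCA1 and C20orf204 stood near its lower end beside H19 (5.93 ± 2.38 FPKM), which was likewise not placed, and LINC00974 was at 0.

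**Figure D5:**
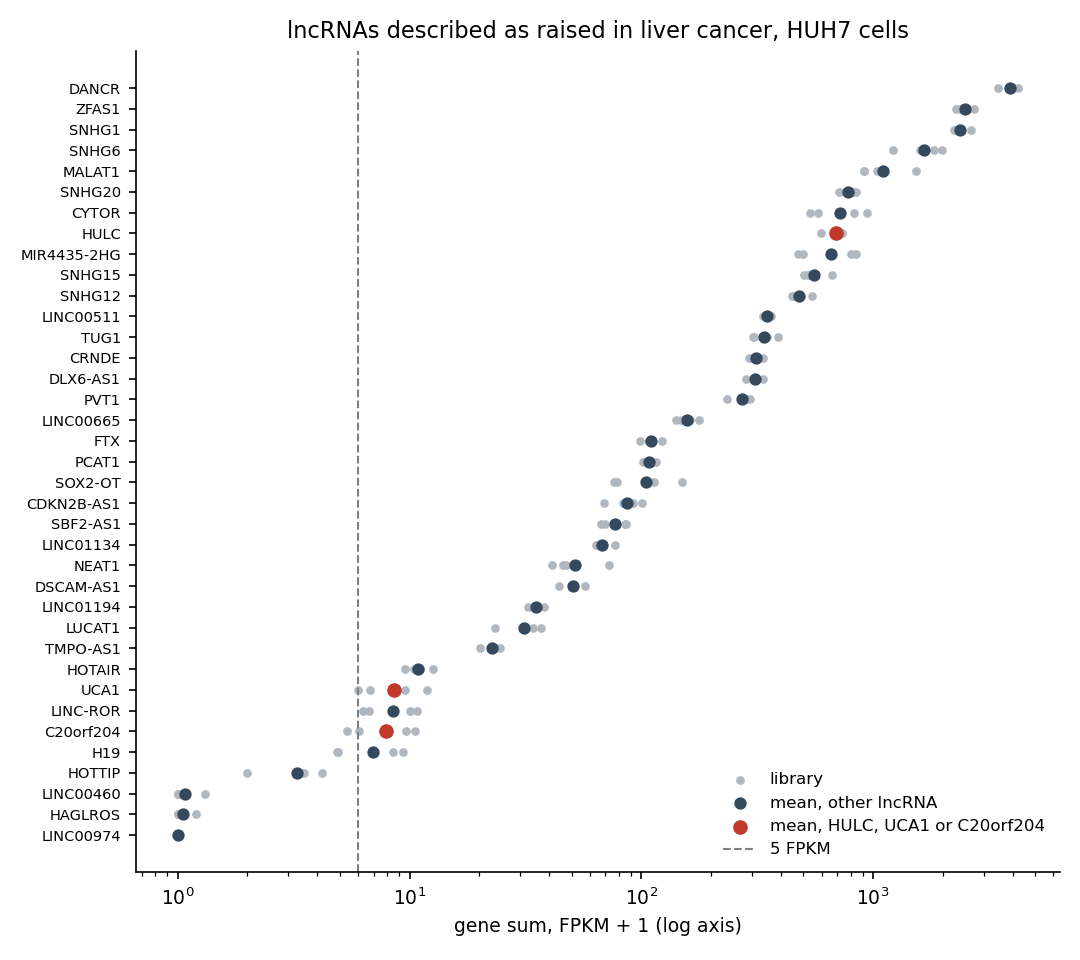
FPKM + 1 (log axis) of the 37 listed lncRNAs found in the table, described elsewhere as raised in liver cancer, with the 4 libraries (grey) and the mean (dark, or red for HULC, UCA1 and C20orf204); 5 FPKM is dashed. HULC (693 FPKM) was in the upper part, and UCA1 (7.56 FPKM) and C20orf204 (6.93 FPKM) were close to the dashed line.

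A second list held 28 lncRNAs described as lowered in liver cancer. Of its 20 members in the table, 18 were tested and 2 had means under 0.1 FPKM. By limma 13 (72.2% of those tested) were above 5 FPKM, 3 were below and 2 were not placed, against 50.3%, 38.5% and 11.2% of all genes tested, and the median of those tested was 44.2 FPKM. GAS5, a growth arrest lncRNA that hosts small nucleolar RNAs, led it at 3584 ± 234 FPKM, before NORAD (listed as LINC00657, 495 ± 57.5 FPKM), LINC00261 (377 ± 27.7 FPKM), MAGI2-AS3 (358 ± 57.4 FPKM) and LINC-PINT (198 ± 35.5 FPKM). Not placed were LINC02499 (4.43 ± 2.52 FPKM) and LINC00472 (4.60 ± 1.72 FPKM), and LINC01093 and MIR31HG were at 0. HULC was higher than every member of this list but GAS5. Both lists describe change against normal liver, which was not measured, and the levels here carry no such comparison.

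To look at the label, lncRNA markers of hepatocyte-derived and other cells were read in the same libraries. Their calls against 5 FPKM did not set the line apart as liver, but this choice of markers could not decide it. Hepatocyte-derived markers summed to 956 to 1143 FPKM per library. Of 12 such markers 10 were in the table and 9 were tested, of which 5 (55.6%) were above 5 FPKM, near the 50.3% of all genes tested, and 1 was not placed. FAM99A, FAM99B and LINC00844 were below it, and LINC01093 was at 0. All of these are also on the list described as lowered in liver cancer, as are LINC01018, LINC00261, LINC02499, LINC01485 and LINC01554. Low levels of such markers in a carcinoma line therefore cannot test its label. All 5 stromal and endothelial markers in the table, of 7, were above 5 FPKM, with sums of 357 to 412 FPKM. Blood markers (4 of 6 in the table) summed to 382 to 478 FPKM, which came almost wholly from LINC00426 (328 ± 24.7 FPKM) and PCED1B-AS1 (101 ± 18.9 FPKM), both above 5 FPKM. MIR155HG was at 0 and MIR142HG had 0.035 ± 0.07 FPKM. Muscle markers (3 of 3 in the table) summed to 15.6 to 25.3 FPKM, with 1 above, 1 below and 1 at 0. The part of such markers in the levels of HULC, UCA1 and C20orf204 was not tested.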

How the data were processed

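RNA of 4 libraries of HUH7 cells was measured after ribosomal RNA depletion with strand-specific libraries, per the extraction protocol, although the labels also name polyA RNA. The authors deposited FPKM values with 2 decimals for 19835 non-coding transcripts. Reads were aligned with Bowtie 1.01 to an Ensembl 68 non-coding annotation on GRCh37 (hg19) and summarised with RSEM 1.2.3, per the submitters' processing notes and the study's methods. No scaling between libraries is described. A level is therefore relative to fragments on non-coding transcripts, and depth was unknown except as estimated from the steps of low values.

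Identifiers were matched to GENCODE release 44 on the same build, which matched 18373 of them, and positions and lengths are those of its newer models. Genes were sums of their transcripts. Those with a mean of 0.1 FPKM or more (7124 genes, 11435 transcripts) entered a two-sided one-sample fit in limma 3.58.1 (R 4.3.3, with trend) of log2(FPKM + 1), set against the same transform of 5 FPKM. P-values were adjusted by Benjamini-Hochberg and called at 0.05. The pseudocount of 1 makes log2 differences of low transcripts smaller than they are. The test was tried on simulated data. Pairs of genes were compared with exact sign-flip tests. Alternatives were pseudocount 0.1, other filters, thresholds of 1 and 10 FPKM, other scalings, no trend, other gene summaries and leaving out each replicate.

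The genes, lists and tests were chosen with earlier results of these data known. Named were all rows of the 3 genes, the 3 nearest genes of each, all rows within 100 kb and the highest within 1 Mb, and of each list the 5 highest, those not placed and those at 0; HOTTIP and the cell type markers given singly were named after their values were seen. Some sequences of HULC and UCA1, and 1 microRNA match, are not reported here.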

Additional observations from a re-analysis of the deposited data

Results flagged for a closer look

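In 3 of 19 quantities checked, 1 library lay far from the other 3, and in each it was replicate 3. Chance alone sets apart about 1 in 20 such groups, and the quantities checked overlap, since both HULC values hold the same row. HULC ENST00000503668 was at 593 FPKM in replicate 3, and the summed HULC rows at 597 FPKM, whereas no other library was under 711 FPKM for the row or under 716 FPKM for the sum. After median-of-ratios scaling, HULC had 758, 640, 584 and 784 FPKM in replicates 1 to 4, and replicate 3 was the lowest but no longer stood apart (its gap to the next was 0.28 of the range, on a scale where 0.87 was found before scaling). The share of ENST00000358393 in the C20orf204 sum was 18.6% in replicate 3, where that row had 0.81 FPKM, against 37.9 to 41.1% in the others.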

How the results depend on the processing

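Of 255 values under alternatives, 218 kept their direction and side of the threshold, or stayed within the limits set for counts and shares. HULC stayed above 5 FPKM under all alternatives run, between 6.82 and 6.92 on the log2 scale when 1 replicate was left out. UCA1 lost its call at 0.46 with no filter (adjusted p = 0.0656 by limma) and without the trend (adjusted p = 0.0526), and at 0.45 with median-of-ratios scaling. It lay at -0.42 against 10 FPKM and at -0.31 with libraries divided to a common sum of 1000000. Left-out replicates gave 0.28 to 0.61 for UCA1 and 0.18 to 0.51 for C20orf204. C20orf204 was called above 1 FPKM (1.93) and below 10 FPKM (-0.53), and turned to -0.41 with the common sum, -0.45 by its highest transcript alone and -0.52 with the 3 rows of unchanged version. The common sum divides each library by 1.76 to 1.97, so it lowers every level. Against 1 FPKM, ENST00000358393 turned to 0.72, ENST00000429060 to 1.45 and ENST00000444463 to 1.10, and ENST00000397381 turned to -0.42 against 10 FPKM and -0.31 with the common sum. ENST00000429060 turned to 0.052 without replicate 1. ENST00000444463 was called below with median-of-ratios scaling (adjusted p = 0.0461) and without the trend (adjusted p = 0.0155). The log2 ratio of UCA1 to C20orf204 ranged over -0.17 to 0.38 when 1 replicate was left out, turning to -0.17 without replicate 1 and -0.12 without replicate 3, and was 0.91 by the highest transcript of each gene (exact p = 0.125, the smallest possible). Fewer low genes were below 5 FPKM with a mean of at least 1 FPKM (1133) and below 1 FPKM (1084), and 1264 were not placed against 1 FPKM, against 2743 and 799. For transcripts these were 1849, 1824 and 2881, against 4953 and 1695. For the remaining changes the cause was not tested. No comparison between groups of samples was possible because the 4 libraries form 1 group, and pairing was only of genes within a library. The low rows rested on about 4.47 to 70.7 fragments.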
